A study of Mus musculus with 72 samples.

Results

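The 9 genes described here encode 4 adrenergic receptors (Adrb1, Adra1a, Adra1b and Adra2a), 3 G protein-coupled receptor kinases, or GRKs (Grk2, Grk3 and Grk5), and the 2 beta-arrestins (Arrb1 and Arrb2). They were chosen by name, and their Ensembl identifiers were looked up among the 53715 gene identifiers of the count files. The study sequenced RNA from the heart and brain of mice lacking Gnb5, which encodes the G protein subunit Gβ5, the partner of the R7 family of RGS proteins that speed up the switching off of Gi/o proteins. Atria and ventricles came from 6 Gnb5−/−, 6 Gnb5+/− and 6 Gnb5+/+ mice, and cerebellum, hippocampus and cerebral cortex came from the Gnb5−/− and Gnb5+/+ mice, so that 72 libraries formed 12 groups of 6. All mice were males of 18 weeks on a C57BL/6J background. Both mutant genotypes carried an inherited deletion of exon 3 of Gnb5 in every cell, in 1 or both copies, and no other allele or agent was added to any group. Litters holding Gnb5−/− pups were given powdered wet food before and after weaning. Atria were taken whole, left and right, with the sinoatrial and atrioventricular cells they contain, and ventricles, hippocampi and cortex were pooled from both sides of the organ, so each library averages over all cells of a tissue.

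Noradrenaline and adrenaline act on the receptors of this set. Adrb1 is the main β-adrenergic receptor of cardiac muscle and raises heart rate and contraction through Gs and cyclic AMP. Adra1a and Adra1b couple to Gq and phospholipase C, and Adra2a couples to Gi/o, the class of G protein on which the Gβ5 complexes act, and restrains noradrenaline release from nerve endings. Activated receptors are phosphorylated by GRKs and then bound by β-arrestins, which uncouple them from G proteins and bring them to clathrin-coated pits. Grk2 and Grk3 are recruited to the membrane by free Gβγ subunits, whereas Grk5 binds membrane lipids directly.

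The genes lie on 5 chromosomes of GRCm38 (GENCODE M21 gene models, 1-based coordinates), none of them chromosome 9, which carries Gnb5. Adrb1 lies on chromosome 19 from 56722199 to 56733113, Adra2a on the same chromosome from 54044151 to 54048982, Grk5 from 60889749 to 61095968 and Grk2 from 4286001 to 4306222. Adra1a lies on chromosome 14 from 66635251 to 66771168 and Grk3 on chromosome 5 from 112910482 to 113015791. Adra1b spans 43774606 to 43901210 and Arrb2 spans 70432635 to 70440828 of chromosome 11, and Arrb1 spans 99535466 to 99606771 of chromosome 7. Grk2, Grk3 and Adra1b are on the minus strand and the other 6 on the plus strand. The libraries kept strand, but the strand setting of the counting step is not given in the sources used here, and 3 genes overlap Grk5 and 1 overlaps Arrb1 on the opposite strand. One microRNA gene also lies inside Arrb1 and another inside Arrb2 on the same strand.

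Since the set holds pairs of related genes, their coding sequences were compared to see how far reads could be told apart. The closest pair was Grk2 and Grk3, with 74.66% identical bases over the aligned coding sequence, followed by Arrb1 and Arrb2 with 72.98% and Adra1a and Adra1b with 64.64%. In none of the 6 pairs compared (these 3, each of Grk2 and Grk3 with Grk5, and Adrb1 with Adra2a) did any annotated transcripts share a stretch of 100 bases. The longest run shared by Grk2 and Grk3 was 30 bases in exon 1 of both genes, and that of the arrestins was 18 bases in exon 14 of Arrb1 and exon 13 of Arrb2. These runs are shown with the bases on either side because they are the longest that the paralogs share. The windows printed lie at chr19:4305937-4305996 and chr5:113015402-113015461 (minus strand) for Grk2 and Grk3, and at chr7:99598503-99598550 and chr11:70439674-70439721 (plus strand) for Arrb1 and Arrb2. They are read 5′ to 3′ from the coding strand of the annotated transcripts, and capitals mark the shared run.
Grk2: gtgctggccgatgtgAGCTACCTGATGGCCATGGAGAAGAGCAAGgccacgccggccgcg
Grk3: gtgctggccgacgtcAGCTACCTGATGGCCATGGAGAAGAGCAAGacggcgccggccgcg
Arrb1: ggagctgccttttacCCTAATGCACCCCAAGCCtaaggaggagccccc
Arrb2: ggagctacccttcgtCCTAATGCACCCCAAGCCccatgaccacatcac

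The 72 libraries held between 29204390 and 48807435 reads counted on genes (median 38864900). Gnb5 itself followed the labels in every tissue, with group means of 33.4, 17.4 and 2.06 CPM (counts scaled to library size) in Gnb5+/+, Gnb5+/− and Gnb5−/− atria and 29.7, 15.5 and 1.52 CPM in ventricles. Summed markers of atrial muscle (Nppa, Myl7, Myl4 and Sln) reached 21738 to 29864 CPM in Gnb5+/+ atria and 130 to 327 CPM in ventricles, and heart muscle markers (Myh6, Actc1, Tnnt2 and Ttn) stood at 215 CPM or less in every brain library. A group of 4 libraries stood apart by a low share of uniquely aligned reads that fell outside genes: replicates 3 and 5 of Gnb5−/− cortex (6.86% and 8.32%, tissue median 14.2%), replicate 2 of Gnb5−/− cerebellum (8.02%, tissue median 16.2%) and replicate 4 of Gnb5+/− ventricles (2.85%, tissue median 4.71%). The main genotype values that rest on them are given with and without them. Levels within a gene are in CPM, scaled by the TMM factors of all 72 libraries, and levels between genes are in the same values per kilobase of exon (RPKM). The length used is that of all annotated exons of a gene merged, so the order of genes and their shares depend on it.

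By RPKM the set was led by the same kinase in heart and brain. Grk2 had the highest mean RPKM of the 9 genes in every group but Gnb5+/− ventricles, where it and Adra1b both averaged 17.6 RPKM. Its group means ran from 14.9 ± 1.6 (SD, n = 6) in Gnb5+/+ atria to 46.2 ± 3.1 RPKM in Gnb5+/+ cortex. This order rests on the annotated exon length, which is 4476 bases for Grk2 and 11175 for Arrb1. In CPM the mean of Arrb1 was above that of Grk2 in Gnb5+/+ atria (112 against 66.5) and in the 3 brain regions (381 against 207 in cortex). It was below that of Grk2 in Gnb5+/+ ventricles (47.7 against 85.2). In the 3 brain regions of Gnb5+/+ mice Arrb1 was second, at 27.3 ± 1.6 RPKM in cerebellum, 24.6 ± 0.62 in hippocampus and 34.1 ± 1.1 in cortex, without overlap of its range with that of the gene above or below it. In the heart of Gnb5+/+ mice Adra1b took the second place, at 11.3 ± 0.48 RPKM in atria and 14.8 ± 4.1 in ventricles. Its range overlapped that of Grk2 in ventricles but not in atria. In Gnb5−/− atria the mean of Arrb1 was just above that of Adra1b (11.6 against 11.5 RPKM), with overlapping ranges. In Gnb5+/+ atria the ranges of Adra1b, Grk3, Arrb1, Grk5 and Arrb2 each overlapped that of the next gene in this order, and in ventricles so did those of Grk5, Adrb1, Arrb2, Adra1a, Grk3 and Arrb1.

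**Figure D1:**
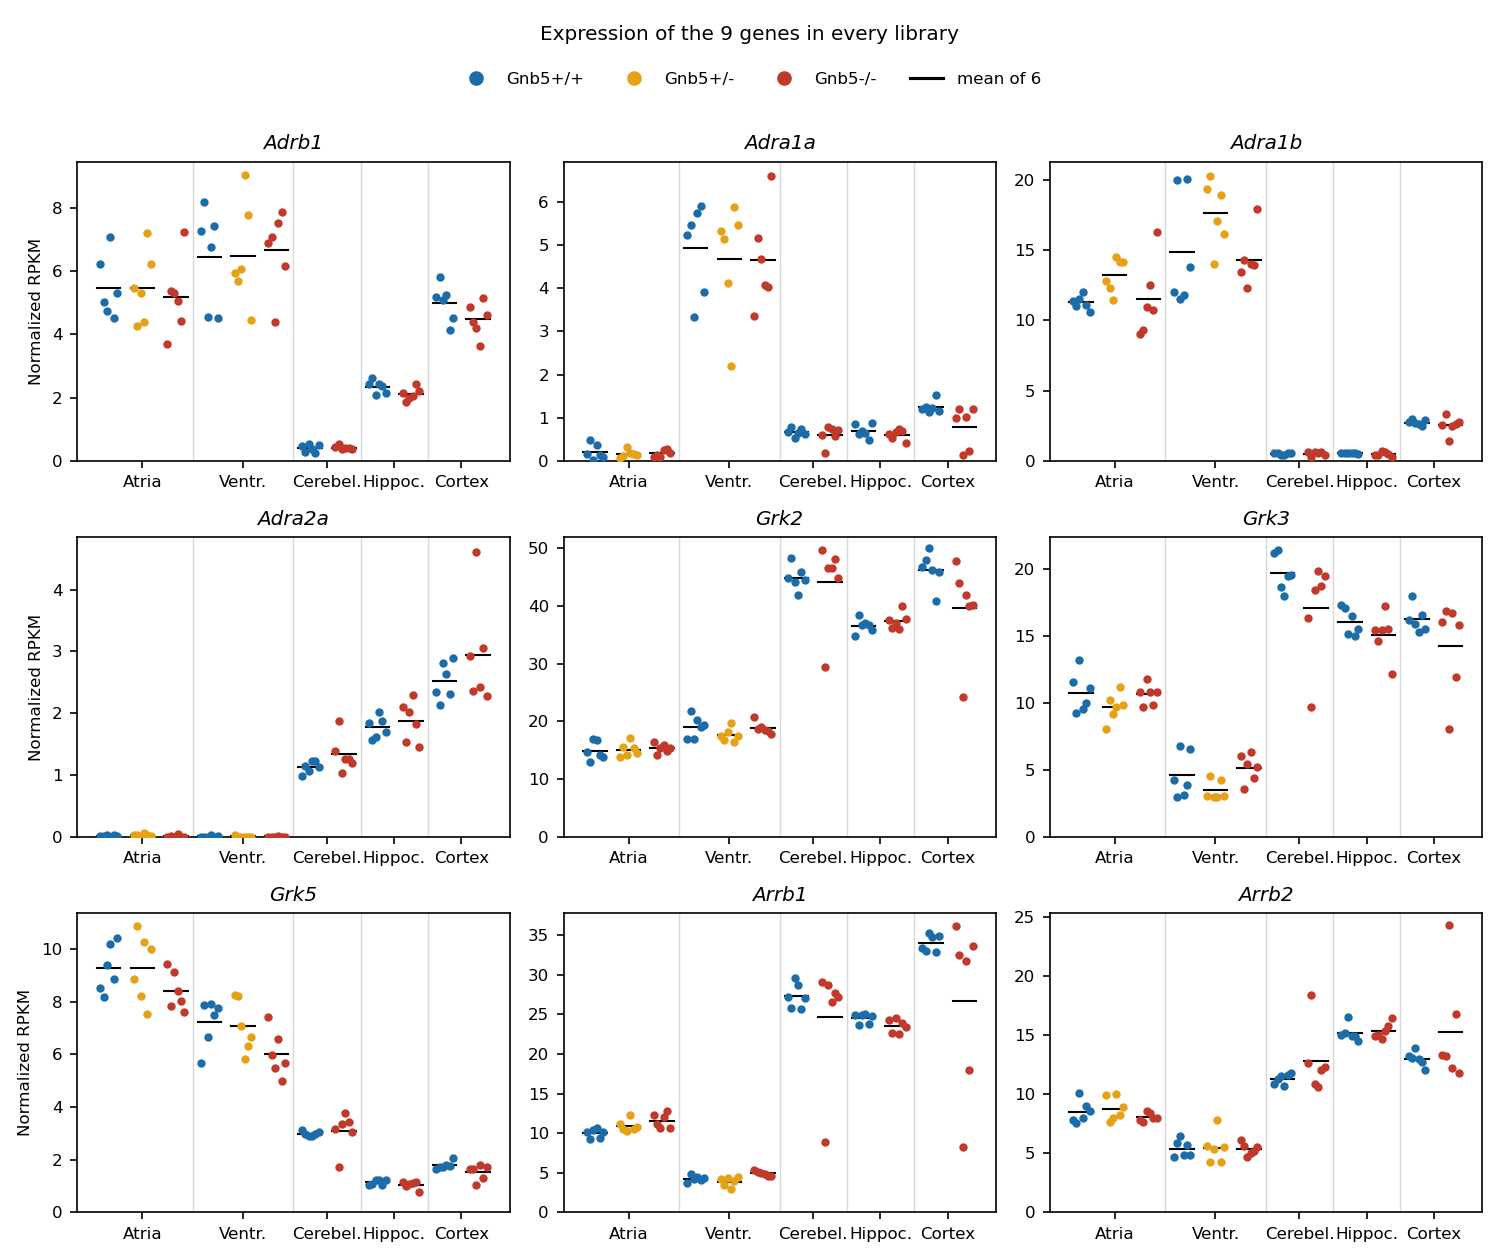
Normalized RPKM (vertical axis, linear, its own scale for each gene) of the 9 genes in each of the 72 libraries, by tissue along the horizontal axis and genotype by colour, with a bar at the mean of 6 mice. Adra1a stands high in ventricles alone, Adra2a is at or near 0 in both heart tissues, and single red points far from their group in cerebellum and cortex belong to the libraries with few reads outside genes.

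Among the receptors, Adrb1 was a gene of heart and cortex. Its level in Gnb5+/+ mice ran from 15.2 over a median of 17.5 to 23.9 CPM in atria, and from 15.3 over 23.7 to 27.7 CPM in ventricles. In cortex it ran from 13.9 to 19.6 CPM (median 17.3), in hippocampus from 7.002 to 8.84 CPM and in cerebellum from 0.837 to 1.77 CPM. The ranges of the 2 heart tissues and of cortex overlapped, whereas hippocampus and cerebellum each lay wholly below them. In bulk tissue such as this, fewer cells of a type and less RNA per cell cannot be told apart.

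Adra1a and Adra1b, both α1 receptors, differed most in the atria. Adra1a ran from 0.176 to 4.29 CPM (median 1.23) in Gnb5+/+ atria and from 29.2 to 51.5 CPM (median 46.7) in ventricles of the same mice. Its brain levels ran from 4.55 to 6.79 CPM in cerebellum, 4.12 to 7.72 CPM in hippocampus and 9.86 to 13.3 CPM in cortex. Every ventricular library was above every library of the other 4 tissues, cerebellum and hippocampus overlapped, and the highest atrial library reached just into the hippocampal range. Adra1b was high in both heart tissues, at 35.9 to 40.6 CPM (median 38.1) in atria and 38.9 to 67.7 CPM (median 43.6) in ventricles, against 8.29 to 9.96 CPM in cortex, 1.54 to 1.99 CPM in hippocampus and 1.45 to 1.94 CPM in cerebellum. Atria and ventricles overlapped, as did hippocampus and cerebellum, and cortex stood between these pairs. As a share of the summed RPKM of both α1 genes, Adra1a made up 1.81% ± 1.5 in Gnb5+/+ atria, 25.3% ± 4.9 in ventricles, 31.3% ± 3.6 in cortex, 55.6% ± 7.1 in hippocampus and 56.3% ± 2.9 in cerebellum.

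Adra2a was a gene of the brain in these samples. Gnb5+/+ atria held 12 reads of it in all (0 to 4 per library) and ventricles 3 (0 to 2 per library), while each brain library of the same genotype held between 269 and 790. In CPM it rose from cerebellum (4.76 to 5.94) over hippocampus (7.59 to 9.76) to cortex (10.3 to 13.97), with no overlap between neighbours. Of all genes tested, 56.9% did not overlap between cerebellum and hippocampus and 26.4% between hippocampus and cortex. With so few reads, no fold change is given for the heart, and Adra2a passed the filter on low counts in the brain fits and not in the fits of atria or ventricles.

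The 3 kinases divided by organ. Grk2 ran from 57.5 to 75.4 CPM (median 64.5) in Gnb5+/+ atria and from 75.4 to 97.1 CPM (median 86.1) in ventricles, against 156 to 224 CPM over the 3 brain regions. Grk3 ran from 80.5 to 114 CPM (median 91.6) in atria and from 25.9 to 59.1 CPM (median 34.99) in ventricles, against 130 to 186 CPM in brain. Grk5 was the reverse of both, at 57.8 to 73.6 CPM (median 64.4) in atria, 40.0 to 55.9 CPM (median 53.9) in ventricles, 20.4 to 22.1 CPM in cerebellum, 11.6 to 14.6 CPM in cortex and 7.27 to 8.71 CPM in hippocampus. No heart library of Gnb5+/+ mice overlapped a brain library in any of the 3 genes, which was so for 47.3% of all genes tested. Of the summed RPKM of the 3 kinases, Grk5 accounted for 26.6% ± 2.1 in atria and 23.4% ± 1.6 in ventricles, and for 2.13% to 4.44% as means of the brain regions.

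Some levels differed widely between the ventricles of Gnb5+/+ mice. Replicates 3 and 6 held the highest ventricular Grk3 (59.1 and 57.0 CPM, the other 4 between 25.9 and 36.6), and also the lowest Adra1a (29.2 and 34.2 CPM) and the lowest Adrb1 (15.4 and 15.3 CPM) of the 6. Replicates 2 and 5 held the highest Adra1b (67.5 and 67.7 CPM, the other 4 between 38.9 and 46.6). These pairs were picked out after their values were seen, and nothing in the labels sets them apart.

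Both arrestins were higher in brain than in heart, and Arrb1 by more. Arrb1 ran from 103 to 119 CPM (median 113) in Gnb5+/+ atria and from 41.2 to 53.7 CPM (median 48.1) in ventricles, against 265 to 280 CPM in hippocampus, 287 to 331 CPM in cerebellum and 368 to 394 CPM in cortex. No 2 of these 5 tissues overlapped. Of all genes tested, 23.9% did not overlap between atria and ventricles, 47.3% between heart and brain, and 26.4% to 57.5% between 2 brain regions. Arrb2 ran from 21.4 to 28.7 CPM (median 23.5) in atria and from 13.3 to 18.3 CPM (median 14.9) in ventricles, against 30.4 to 33.4 CPM in cerebellum, 34.2 to 39.5 CPM in cortex and 41.2 to 47.0 CPM in hippocampus, again without overlap. Arrb1 made up 54.2% ± 2.7 of the summed RPKM of both arrestins in atria, 44.4% ± 3.3 in ventricles, 61.8% ± 1.1 in hippocampus, 70.8% ± 1.6 in cerebellum and 72.4% ± 1.1 in cortex of Gnb5+/+ mice.

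Atria were compared with ventricles in the Gnb5+/+ mice, in a fit of all 5 tissues with the mouse as a block. By edgeR's quasi-likelihood test, 7 of the 9 genes passed an adjusted p of 0.05, 4 higher and 3 lower in atria, in a comparison in which 53.6% of all 19477 genes tested did so (31% higher, 22.7% lower). Adra2a, with 12 and 3 reads in all, was tested in this fit through the brain libraries alone. Over the 8 members that passed the filter in the fit of each heart tissue, the median log2 fold change was 0.11, beside 0.04 over all 14635 such genes, of which 61.3% were called. The set did not shift as one. Both arrestins, Grk3 and Grk5 were higher in atria, and Adra1a, Adra1b and Grk2 were lower.

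Adra1a differed most (log2 fold change -4.60, SE 0.29, adjusted p = 1.7e-13) and stood 24.2-fold lower in atria. Grk3 was higher by 1.30 on the log2 scale (SE 0.14, adjusted p = 5.4e-09), Arrb1 by 1.27 (SE 0.06, adjusted p = 6.6e-17), Arrb2 by 0.71 (SE 0.06, adjusted p = 2.4e-10) and Grk5 by 0.41 (SE 0.07, adjusted p = 9.7e-06). For these 5 genes no atrial library overlapped a ventricular one, which was so for 23.9% of all genes tested. The other pair of calls were small, at -0.31 for Grk2 (SE 0.07, adjusted p = 7.1e-04) and -0.32 for Adra1b (SE 0.11, adjusted p = 0.011), and their libraries overlapped. Adrb1 was not called, and its log2 fold change of -0.18 had a 95% interval from -0.47 to 0.10 (adjusted p = 0.28).

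**Figure D2:**
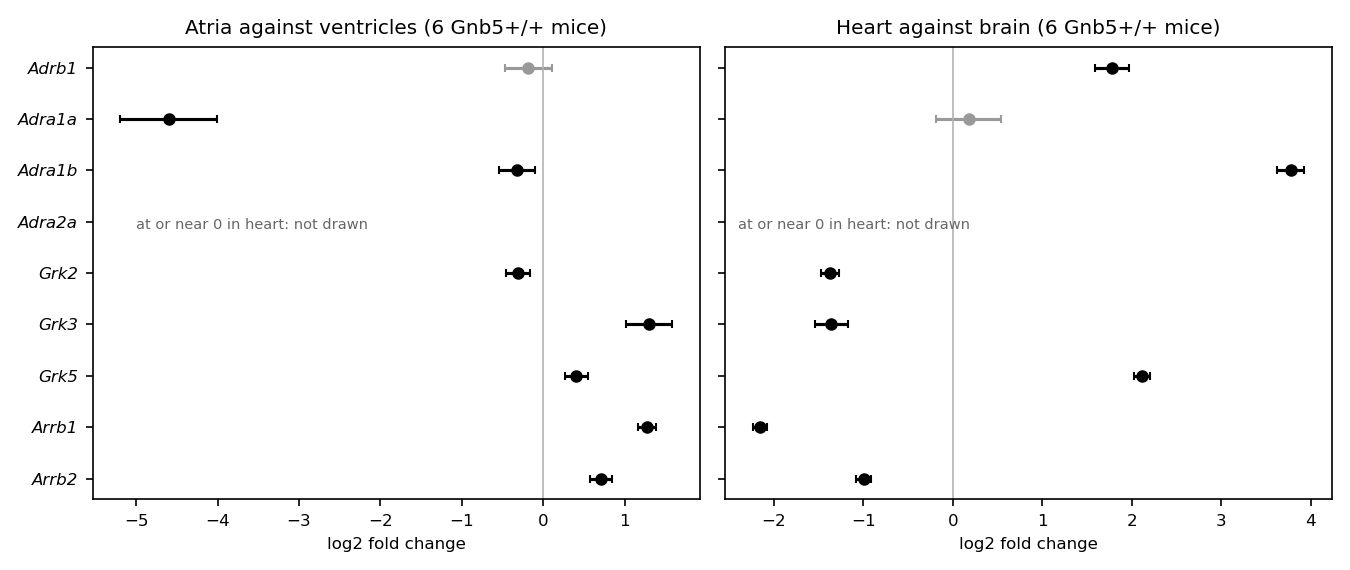
Log2 fold changes of the members between atria and ventricles (left) and between heart and brain (right) in 6 Gnb5+/+ mice, with 95% intervals as bars, black where the adjusted p was below 0.05 and grey otherwise. Adra1a lies at -4.60 on the left and at 0.18 on the right, and Adra2a is not drawn since it is at or near 0 in heart.

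The same comparison in the 6 Gnb5−/− mice, which are other animals, gave log2 fold changes of -4.79 for Adra1a, 1.06 for Grk3, 1.23 for Arrb1, 0.59 for Arrb2, 0.48 for Grk5 and -0.30 for Grk2, each called (largest adjusted p = 0.037, Grk2). Adra1b stood at -0.33 and was not called there (adjusted p = 0.21), and Adrb1 stood at -0.36 and was called (adjusted p = 0.042). That comparison called 8107 of all 19425 genes tested. Within mice, the share of Grk2 in the summed RPKM of the 3 kinases was lower in atria than in ventricles in 6 of 6 mice of each genotype, by a mean of 19.2 percentage points in Gnb5+/+ mice, and the share of Grk3 was higher in 6 of 6, by 15.9. The share of Arrb1 among the arrestins was higher in atria in 6 of 6 mice of each genotype, by 9.81 percentage points in Gnb5+/+ mice.

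The 2 tissues also differed in the summed levels of cell markers. In Gnb5+/+ mice the summed level of 4 leukocyte markers (Ptprc, Cd68, Csf1r and Cd3e) was 133 to 165 CPM in atria against 80.7 to 95.9 CPM in ventricles, and that of 4 fibroblast markers (Pdgfra, Col1a1, Dcn and Tcf21) was 1360 to 1916 against 876 to 1096 CPM. The 5 neuron markers (Rbfox3, Snap25, Syt1, Slc17a7 and Gad1) summed to 235 to 329 CPM in atria and 23.3 to 46.5 CPM in ventricles. Only 1 of them exceeded 1 CPM in the heart, so this sum is mostly that of 1 gene. The 4 smooth muscle and pericyte markers (Myh11, Cnn1, Rgs5 and Pdgfrb) were lower in atria, at 393 to 572 against 919 to 1173 CPM. The part of cell content in the differences of Grk3, Grk5 and the arrestins was not tested.

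The atrial libraries differed widely among themselves in Adra1a, and after these values were seen they were set beside the summed level of 4 ventricular muscle genes (Myl2, Myl3, Irx4 and Myh7). That sum ran from 46.5 to 1346 CPM over the 18 atrial libraries and from 14149 to 15132 CPM in Gnb5+/+ ventricles. The libraries with the highest sums, replicates 2 and 4 of Gnb5+/+ atria, also held the highest Adra1a (4.29 and 3.24 CPM). On the log2 scale the correlation was 0.735 (Pearson, permutation p = 0.00044) and 0.705 (Spearman, permutation p = 0.00159) over 18 libraries, and Pearson's r was 0.590 without the 2 libraries farthest from the median sum. It was the only relation of this kind computed. The lowest library, replicate 3 of Gnb5+/+ atria, held 0.176 CPM.

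**Figure D3:**
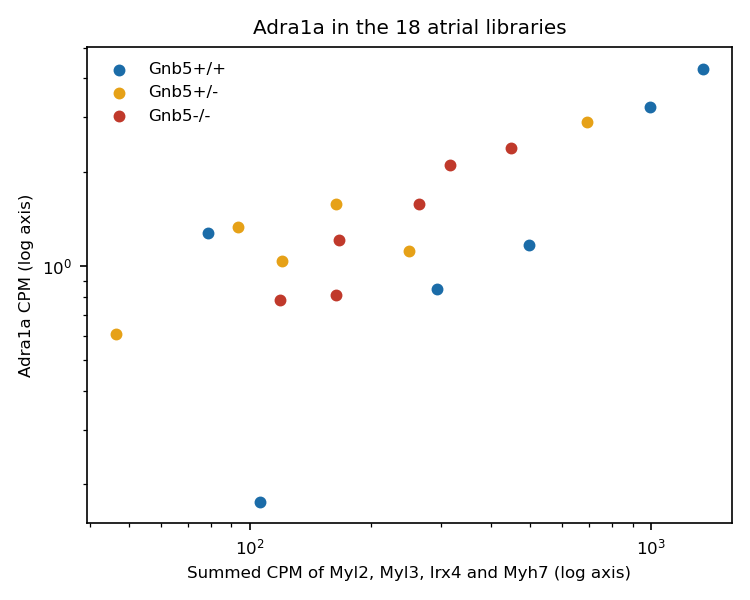
Adra1a CPM (vertical, log axis) against the summed CPM of 4 ventricular muscle genes (horizontal, log axis) in 18 atrial libraries, 1 point each, coloured by genotype. The points rise from 0.609 CPM at the lowest sum to 4.29 CPM at the highest, and 1 library lies far below the others at 0.176 CPM.

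Heart and brain were compared as the mean of 2 against the mean of 3 tissues in the Gnb5+/+ mice, where 91.6% of all genes tested were called (41% higher in heart, 50.6% lower), so that a call says little. Of the members, 8 of 9 were called, 3 higher in heart and 5 lower, and the heart and brain libraries of 7 did not overlap, beside 47.3% of all genes. Adra2a is among the 5 and among the 7, as a gene at or near 0 in heart that passed the filter through the brain, where it is high. Adra1b was higher in heart by 3.78 on the log2 scale (SE 0.07, adjusted p = 5.5e-27), Grk5 by 2.12 (SE 0.04, adjusted p = 1.9e-26) and Adrb1 by 1.78 (SE 0.09, adjusted p = 7.8e-17). Arrb1 was lower by 2.16 (log2 fold change -2.16, SE 0.04, adjusted p = 4.6e-28), with -1.37 for Grk2, -1.36 for Grk3 and -0.99 for Arrb2. Adra1a showed 0.18 (95% interval -0.18 to 0.54, adjusted p = 0.34), an average over low atrial and high ventricular levels. The value of Adrb1 is an average as well: its heart libraries overlapped those of cortex and lay above those of hippocampus and cerebellum.

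Within the brain, cortex was the region of the receptors. Against cortex, hippocampus was lower in 7 members and higher in 1, in a comparison that called 37.7% of all genes (18.7% higher, 19% lower), and the libraries of these 8 members did not overlap, beside 26.4% of all genes. Adra1b fell furthest (log2 fold change -2.31, SE 0.12, adjusted p = 1.8e-14), followed by Adrb1 (-1.08, SE 0.14, adjusted p = 3.7e-07), Adra1a (-0.81, SE 0.24, adjusted p = 0.0085), Grk5 (-0.63), Adra2a (-0.49), Arrb1 (-0.46) and Grk2 (-0.32). Arrb2 was the member that was higher in hippocampus (0.24, SE 0.06, adjusted p = 0.0019), and Grk3 was level between the regions, with a 95% interval from -0.27 to 0.27. In these comparisons too the Gnb5+/+ mice were used. In the Gnb5−/− mice 3 of the members (Adrb1, Adra1b and Grk5) were called with all libraries, beside 4662 of all 19425 genes tested. Without the 3 brain libraries that stood apart 7 members were called, beside 6605 of all 19920 genes tested.

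Cerebellum stood apart from both other regions most in Adrb1 and Grk5. Adrb1 was lower than in cortex by 3.56 on the log2 scale (log2 fold change -3.56, SE 0.16, adjusted p = 2.5e-17), an 11.8-fold difference, and lower than in hippocampus (-2.48, SE 0.16, adjusted p = 8.2e-14). Grk5 was higher than in cortex (0.82, SE 0.07, adjusted p = 2.4e-11) and than in hippocampus (1.45, SE 0.07, adjusted p = 1.5e-16), and its libraries did not overlap those of either region. By less, Adra2a was lower than in cortex (-1.08) and hippocampus (-0.59), and so was Arrb2 (-0.13 and -0.37). Arrb1 lay between the other regions (-0.25 against cortex, 0.21 against hippocampus). The libraries of these genes did not overlap those of either region. Against cortex 8 members were called, 2 higher and 6 lower, where 71.8% of all genes were (35.1% higher, 36.7% lower), and 7 did not overlap, beside 57.5% of all genes. Against hippocampus 7 were called, 4 higher and 3 lower, where 70.8% of all genes were (35% higher, 35.9% lower), and 7 did not overlap, beside 56.9%. Adra1b did not differ detectably between cerebellum and hippocampus (-0.03, 95% interval -0.31 to 0.25), nor did Adra1a (-0.04, 95% interval -0.53 to 0.46). The calls of Grk3 (0.35) and Arrb2 (-0.13, adjusted p = 0.049) against cortex lay near the threshold.

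The genotypes were then compared within each tissue, to ask whether these genes change when Gnb5 is lost. No member was called by edgeR's quasi-likelihood test in any of the 9 genotype comparisons within a tissue, with 8 of the 9 genes tested in heart and 9 in brain. The background was low as well: of all genes tested, Gnb5−/− against Gnb5+/+ called 0.253% in atria, 0.188% in ventricles, 0.0817% in cerebellum, 0.165% in hippocampus and 0.0557% in cortex. Gnb5+/− against Gnb5+/+ called 0.0124% in atria and 0.0202% in ventricles, and Gnb5−/− against Gnb5+/− called 0.0494% and 0.0874%. The share of all genes whose groups did not overlap was 0.643%, 0.192% and 0.457% in the 3 comparisons of atria (Gnb5−/− with Gnb5+/+, Gnb5+/− with Gnb5+/+, and Gnb5−/− with Gnb5+/−) and 0.545%, 0.148% and 1.02% in those of ventricles. It was 1.11% in cerebellum, 0.608% in hippocampus and 0.534% in cortex, where no member was without overlap. At an unadjusted p below 0.05, 1 of 8 members passed between Gnb5−/− and Gnb5+/+ atria (8.15% of all genes), 1 between Gnb5+/− and Gnb5+/+ atria (7.22%) and 1 between Gnb5−/− and Gnb5+/+ ventricles (4.78%). Between Gnb5−/− and Gnb5+/− ventricles 4 of 8 passed, beside 8.79% of all genes. None of the 9 passed in a brain region, and none of the 8 in the remaining comparison of each heart tissue. DESeq2's Wald test called no member in any of the 9 comparisons either.

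Arrb1 in heart came closest. In atria it ran from 103 over a median of 113 to 119.0 CPM in Gnb5+/+ mice, from 115 over 119.0 to 137 CPM in Gnb5+/− mice, and from 119.1 over 129 to 142 CPM in Gnb5−/− mice. The Gnb5−/− and Gnb5+/+ libraries did not overlap, while the Gnb5+/− libraries reached into both. Gnb5−/− atria were higher by 0.22 on the log2 scale (SE 0.06, 95% interval 0.08 to 0.35, adjusted p = 0.30), and the two-sided exact permutation test over the mice gave p = 0.00216, the smallest that 6 against 6 can give, unadjusted and 1 of 81 such tests.

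In ventricles Arrb1 ran from 41.2 over 48.1 to 53.7 CPM in Gnb5+/+ mice, from 32.5 over 45.6 to 49.8 CPM in Gnb5+/− mice and from 51.1 over 55.01 to 60.3 CPM in Gnb5−/− mice. All 6 Gnb5−/− libraries lay above the mean of the Gnb5+/+ libraries but the ranges overlapped. Relative to Gnb5+/+ ventricles, the Gnb5−/− level differed by 0.19 on the log2 scale (SE 0.10, 95% interval -0.01 to 0.40, adjusted p = 1.00, unadjusted exact permutation p = 0.0108). Relative to Gnb5+/− it differed by 0.33 (SE 0.10, adjusted p = 0.33), and those 2 groups did not overlap. That value fell to 0.25 (adjusted p = 0.22) without the Gnb5+/− library with few reads outside genes, which held the lowest ventricular Arrb1. The 2 comparisons share their Gnb5−/− libraries and so are not independent. The Gnb5−/− difference did not differ detectably between atria and ventricles (0.01, 95% interval -0.21 to 0.23). The summed leukocyte markers were 133 to 165 CPM in Gnb5+/+ atria against 155 to 191 CPM in Gnb5−/− atria, and 80.7 to 95.9 against 87.2 to 99.3 CPM in ventricles. The sum of 5 fat cell markers (Adipoq, Plin1, Cidec, Cfd and Ucp1) was 6.34 to 28.6 CPM in Gnb5+/+ atria against 5.85 to 344 CPM in Gnb5−/− atria. The neuron markers had medians of 258 CPM in Gnb5+/+ and 186 CPM in Gnb5−/− atria, and of 34.7 and 23.0 CPM in ventricles, and the smooth muscle and pericyte markers had medians of 473 and 380 CPM in atria. The part of these cells in the Arrb1 values was not tested.

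Other members in heart showed smaller evidence of a difference. Grk5 in ventricles ran from 40.0 over 53.9 to 55.9 CPM in Gnb5+/+ and from 35.3 over 41.2 to 52.3 CPM in Gnb5−/− mice, with 5 of 6 Gnb5−/− libraries below the Gnb5+/+ mean. The difference was -0.27 on the log2 scale (SE 0.11, unadjusted p = 0.023, adjusted p = 0.90), and -0.14 in atria (SE 0.09, adjusted p = 0.76). Grk3 in ventricles ran from 25.5 over 26.6 to 39.5 CPM in Gnb5+/− and from 30.7 over 46.1 to 55.05 CPM in Gnb5−/− mice, which came to 0.56 on the log2 scale (SE 0.20, unadjusted p = 0.012, adjusted p = 0.45). The lowest of these Gnb5+/− libraries is the one with few reads outside genes, and without it the difference was 0.51 (adjusted p = 0.35). In the same comparison Adra1b differed by -0.30 (SE 0.14, unadjusted p = 0.046, adjusted p = 0.55) and Grk5 by -0.23 (SE 0.11, unadjusted p = 0.048, adjusted p = 0.56), and without that library by -0.32 and -0.29. Adra1b in atria ran from 35.9 to 40.6 CPM in Gnb5+/+ and from 38.7 to 49.0 CPM in Gnb5+/− mice, which came to 0.24 (SE 0.11, adjusted p = 0.68), and stood at 30.5 to 55.2 CPM in Gnb5−/− mice. None of these passed the adjustment.

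For the remaining members the 95% intervals set the size of a difference that these data allow. Between Gnb5−/− and Gnb5+/+ mice the intervals of Grk2 reached from -0.10 to 0.20 in atria, -0.17 to 0.12 in ventricles and -0.04 to 0.10 in hippocampus on the log2 scale. They were wider in cerebellum (-0.25 to 0.21) and cortex (-0.46 to 0.05). For Adrb1 they spanned -0.40 to 0.24 in atria and -0.32 to 0.40 in ventricles. Adra1a was the least well determined, with intervals of -1.35 to 0.78 in atria and -1.58 to 0.30 in cortex, which hold differences of more than 1 log2 unit. The cortex intervals include the 2 libraries with few reads outside genes, and the cerebellum interval includes 1 such library.

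**Figure D4:**
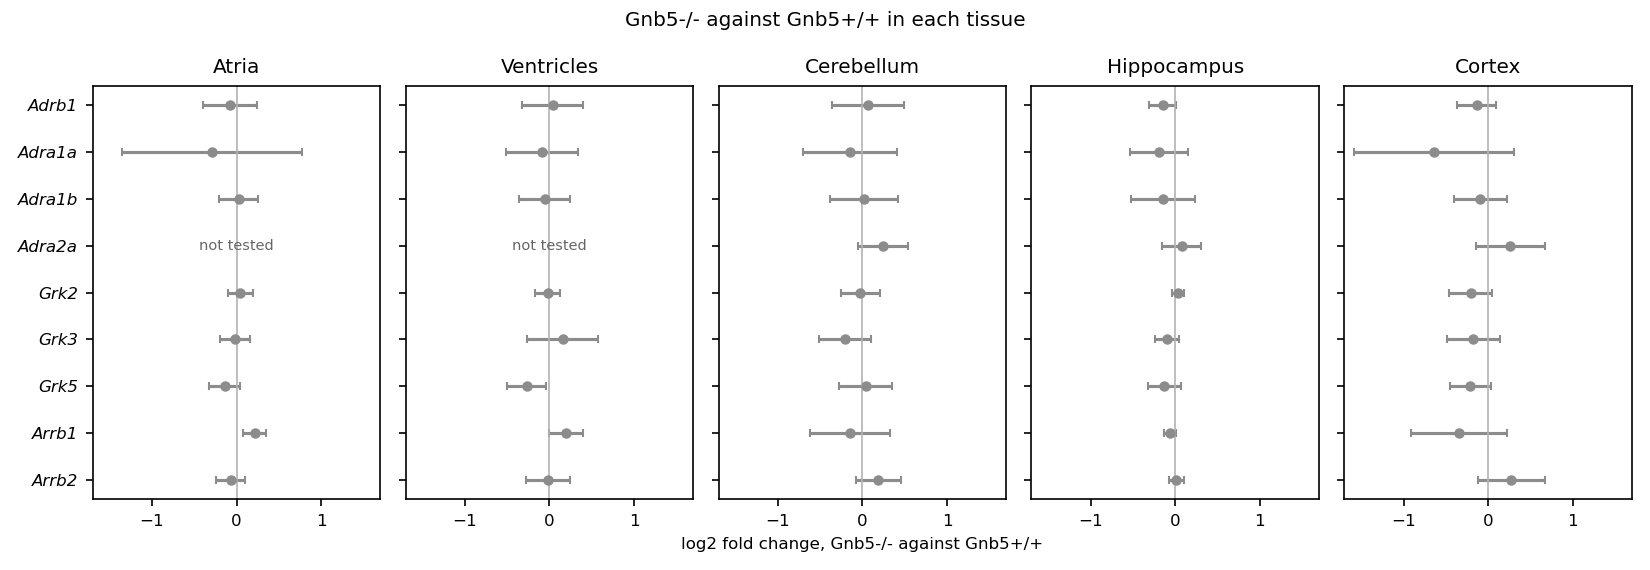
Log2 fold changes of Gnb5−/− against Gnb5+/+ mice in each of the 5 tissues, with 95% intervals as bars, all grey since no adjusted p was below 0.05. The interval of Arrb1 excludes 0 in atria and that of Grk5 in ventricles, the 2 members with an unadjusted p below 0.05, and Adra1a has the widest bar in every tissue but hippocampus.

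The brain comparisons of these genes turned on the libraries with few reads outside genes. In cortex Arrb1 ran from 368 over 381 to 394 CPM in Gnb5+/+ mice and from 92.6 over 360 to 404 CPM in Gnb5−/− mice. The 2 lowest Gnb5−/− values, 92.6 and 201.5 CPM, were those of replicates 3 and 5, and the other 4 Gnb5−/− libraries lay between 355 and 404 CPM. With all libraries the difference was -0.34 on the log2 scale (SE 0.26, adjusted p = 0.50), and without these 2 it was -0.02. Adra1a in cortex stood at 1.10 and 1.95 CPM in the same libraries and between 8.66 and 10.52 CPM in the other 4, against 9.86 to 13.3 CPM in Gnb5+/+ mice, and its difference went from -0.64 to -0.17. In cerebellum, replicate 2 of the Gnb5−/− mice held 98.7 CPM of Arrb1 where the other 5 held 297 to 325 CPM, and a difference of -0.15 became 0.03 without it.

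The direction depended on the gene. In all 4 libraries that stood apart, Arrb1 and Adra1a were the lowest or second lowest of their tissue and Arrb2 was the highest or second highest, with 69.1 and 47.8 CPM of Arrb2 in the cortex libraries, 52.3 CPM in the cerebellum library and 22.2 CPM in the ventricle library. Grk3 was also the lowest or second lowest in each (69.8, 104, 84.3 and 25.5 CPM), and Adra2a was the highest of its tissue in replicate 3 of cortex (22.3 CPM) and replicate 2 of cerebellum (9.02 CPM). As a result Arrb1 made up 25.4% of the arrestin RPKM in the lowest Gnb5−/− cortex library, where the Gnb5+/+ cortex libraries held 71.6% to 74.4%. The samples were labelled as other mice and, for the ventricle library, as another genotype, so the pattern was not confined to Gnb5−/− samples or to brain. What set these libraries apart was not tested.

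**Figure D5:**
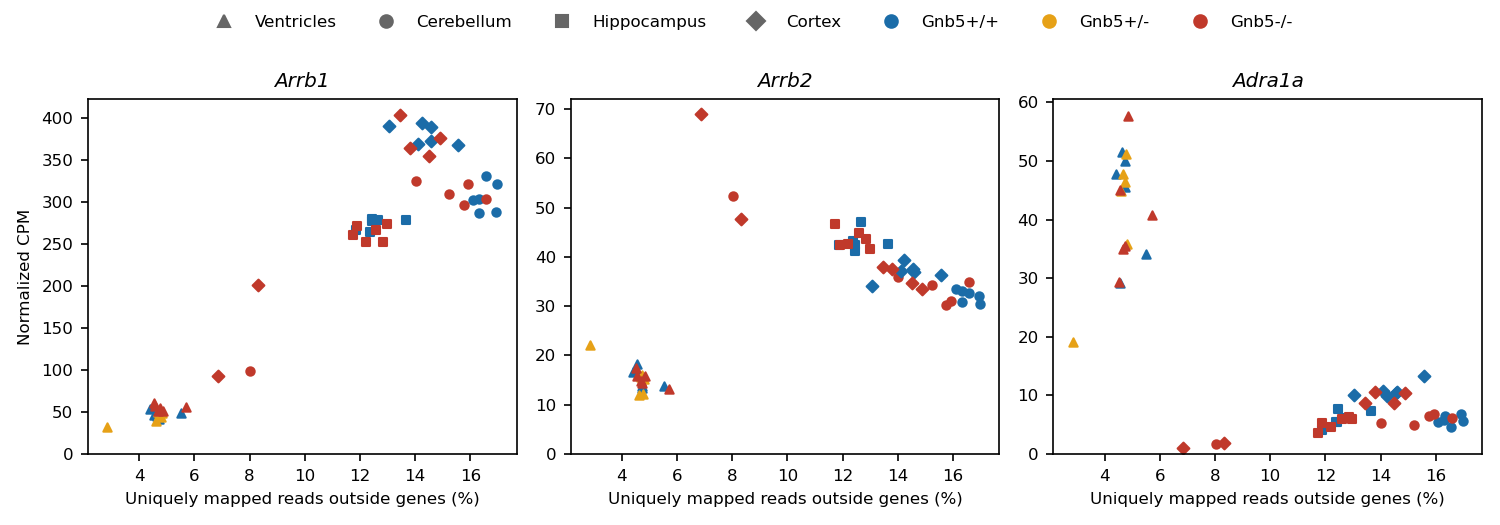
CPM of Arrb1, Arrb2 and Adra1a (vertical, linear) against the percentage of uniquely aligned reads outside genes (horizontal) in the 54 libraries of ventricles and brain, 1 point each, with shape for tissue and colour for genotype. The 4 libraries at the left end of their tissue (2.85%, 6.86%, 8.02% and 8.32%) lie low for Arrb1 and Adra1a and high for Arrb2.

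Hippocampus had no library of this kind. Arrb1 ran from 265 over 278 to 280 CPM in Gnb5+/+ and from 252 over 264 to 274 CPM in Gnb5−/− mice, with 6 of 6 Gnb5−/− libraries below the Gnb5+/+ mean and overlapping ranges. The difference was -0.06 (SE 0.03, 95% interval -0.13 to 0.0045, adjusted p = 0.68), opposite in sign to both heart tissues. As an interaction over 60 libraries, the Gnb5−/− difference of Arrb1 in heart minus that in brain was 0.41 (SE 0.17, 95% interval 0.07 to 0.74, unadjusted p = 0.019, adjusted p = 0.32), in a test that called 0.408% of all genes. Without the 3 brain libraries that stood apart it was 0.23 and passed the threshold (adjusted p = 0.0034). That fit was chosen after the values were seen, and it leaves out the lowest brain values of the gene. No member was called in the interaction of atria with ventricles, which called 0.00622% of all genes, or in the joint test over the 3 brain regions, which called 0.0155%.

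The wider pathway was followed through 58 genes in 6 lists: other adrenergic receptors (5), other GRKs and arrestins (5), enzymes and transporters of catecholamines (11), the Gs and protein kinase A branch (17), the Gq and Gi branches (12) and genes of arrestin-dependent endocytosis and ubiquitination (8). None of the 50 to 55 genes tested was called in any of the 9 genotype comparisons within a tissue, with a smallest adjusted p of 0.21. In the interaction of heart with brain, 1 of the 12 genes of the Gq and Gi branches was called (edgeR adjusted p = 0.033). That test called 0.408% of all genes. In Gnb5+/+ mice, 41 of 57 genes tested differed between atria and ventricles, 22 higher and 19 lower in atria, beside 53.6% of all genes. Some of these are near 0 in heart and were tested through the brain libraries, and of the 51 genes that passed the filter in the fit of each heart tissue 36 were called (19 higher, 17 lower), beside 61.3% of all such genes.

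Within the lists, 3 of 5 other receptors were called between the chambers. Adra2b and Adra1d were lower in atria (-1.09 and -0.89 on the log2 scale). Adrb3 was called as higher, but it did not pass the filter in the fits of both heart tissues, so its fold change is not given. All 3 were low, at means between 0.154 and 2.86 CPM. Of the other GRKs and arrestins, Grk4 was higher in atria (0.59, means 3.61 and 2.53 CPM). Arr3, also counted as a call, was at 0 in every Gnb5+/+ atrial library and near 0 in Gnb5+/+ ventricles.

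All 11 catecholamine genes were called between the chambers, 7 higher and 4 lower in atria, and 8 of them (5 higher, 3 lower) passed the filter in both heart tissues. Slc18a2, the vesicular monoamine transporter, was higher in atria by 2.65 (means 4.62 and 0.777 CPM). Ddc, which makes dopamine, was lower (-2.71, means 0.612 and 3.87 CPM). Th, which makes the precursor of dopamine, did not pass the filter in ventricles. It was at 0 in every Gnb5+/+ ventricular library and at a mean of 0.171 CPM in Gnb5+/+ atria. In the Gs and protein kinase A branch 5 of 17 were higher and 8 lower. Pln, which restrains the calcium pump of the sarcoplasmic reticulum, was lower in atria (log2 fold change -1.796, adjusted p = 0.0015), Akap5, an anchor of protein kinase A at the membrane, was lower (-1.62) and Prkar2b, a regulatory subunit of the kinase, was higher (1.498).

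In the Gq and Gi branches 6 of 12 were higher and 4 lower in atria. Gnao1, encoding the Go subunit, was higher by 2.82 (means 296 and 43.6 CPM, adjusted p = 3.7e-21), Gnai1 by 1.27 (adjusted p = 3.1e-10) and Prkcd, a protein kinase C, by 0.69 (adjusted p = 2.7e-06). Of the endocytosis genes 2 of 8 were called, Ap2b1, the adaptor subunit that binds arrestins, at 0.29 and the ubiquitin ligase Nedd4 at 0.16, both higher in atria.

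Finally, the genes whose group means followed each member most closely over the 12 groups were listed among 16138 protein-coding genes, up to 2 per member, by Pearson's r of log2 levels. These values describe 12 group means that share libraries and tissues. For Adrb1 they were Pmepa1 (r = 0.991) and Card9 (0.984), for Adra1a Tll2 (0.993) and Psap (0.984), for Adra1b Fhod3 (0.994) and Rassf3 (0.994) and for Adra2a Rhov and Ssbp3 (both 0.999). For the kinases they were Igsf21 and Akap17b (both 0.994) with Grk2, Nab2 and Adcy1 (both 0.991) with Grk3, and Rbpj (0.997) and Vsig10 (0.993) with Grk5. For the arrestins they were Cdc25b (0.994) with Arrb1, and Ntsr2 (0.993) and Syn2 (0.992) with Arrb2. How many genes came so close differed widely, with 11 genes above 0.95 for Adra1a, 45 for Adrb1 and 144 for Grk3, and 2434 for Adra2a, whose pattern is mainly that of heart against brain.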

How the data were processed

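RNA was sequenced from 72 samples of 18 mice. Per the labels and the methods of the study, the authors trimmed adapters with cutadapt 1.8, removed ribosomal and low-complexity reads, aligned to GRCm38 with STAR 2.5.3a and counted reads per Ensembl gene with HTSeq 0.9.1. The deposited values are these raw counts, 1 column per library, without normalization. The members and the gene lists were chosen with earlier results of these data known.

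Of the 53715 identifiers, 53620 were matched to GENCODE M21 and 95 were not. The reads that htseq-count reported outside genes stayed out of library sizes and tests and made up 2.85% to 17% of uniquely aligned reads. Library sizes were adjusted by TMM, and low genes were dropped by filterByExpr at a minimum count of 10. Within each tissue the genotypes were tested by edgeR's quasi-likelihood test (edgeR 4.0.16, limma 3.58.1, R 4.3.3) with genotype alone, all 18 libraries of a heart tissue or 12 of a brain region per fit. Tissues were compared in the 30 Gnb5+/+ libraries, and interactions over Gnb5−/− and Gnb5+/+ libraries, with the mouse as a block. P-values were adjusted by Benjamini and Hochberg over all genes tested, and an adjusted p below 0.05 is a call. Standard errors are the log2 fold change over the root of F, and intervals are at 95%. For single members, log2 CPM (prior count 2) was tested by exact permutation, two-sided, over the 924 divisions of 12 mice. Correlation p-values used 100000 resamples. Precision comes from the spread between mice.

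The named genes are all members, Gnb5, pathway genes called between genotypes within a tissue, the 3 of each list with the largest called log2 fold change between Gnb5+/+ atria and ventricles, and 2 protein-coding genes per member by Pearson's r over group means. Some genes this rule would name are not reported here. The alternatives were DESeq2 1.42.0, RLE factors, no filter, other samples or blocks, and fits without single libraries. The scripts were tested on simulated data. Protein sequences and promoters were not used here.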

Additional observations from a re-analysis of the deposited data

Results flagged for a closer look

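Each member's CPM was examined in each of the 12 groups for a highest or lowest library far from the other 5, by Dixon's criterion for 6 values. Chance alone marks about 1 in 20 such sets, or 5.4 of the 108 examined, and 17 were marked. Replicate 2 of Gnb5−/− cerebellum was the low extreme for Adra1a (1.65 CPM), Grk2 (132 CPM), Grk3 (84.3 CPM), Grk5 (12.03 CPM) and Arrb1 (98.7 CPM) and the high extreme for Arrb2 (52.3 CPM). Replicate 3 of Gnb5−/− cortex was the low extreme for Grk2 (109 CPM) and the high extreme for Adra2a (22.3 CPM). Both are among the 4 libraries with a low share of reads outside genes, and the part of that share in these values was not tested.

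The other 9 came from other libraries. They were Adra1a in Gnb5+/+ cortex replicate 5 (13.3 CPM, high), Adra1b in Gnb5−/− ventricles replicate 6 (60.5 CPM, high), Adra1b in Gnb5+/+ hippocampus replicate 6 (1.54 CPM, low), Grk5 in Gnb5+/+ cortex replicate 6 (14.6 CPM, high) and Arrb2 in Gnb5+/+ hippocampus replicate 3 (47.0 CPM, high). The last 4 were Adra2a in heart: 0.269 CPM in Gnb5+/− atria replicate 4 (10 reads), 0.205 CPM in Gnb5−/− atria replicate 4 (9 reads), and 0.107 CPM in Gnb5+/− ventricles replicate 1 and 0.0861 CPM in Gnb5−/− ventricles replicate 4 (2 reads each).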

How the results depend on the processing

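No member was called in a genotype comparison within a tissue under any alternative run, with a smallest adjusted p of 0.12. The calls of Adra1a, Grk2, Grk3, Grk5, Arrb1 and Arrb2 between atria and ventricles held in every alternative run. In the tissue comparisons 23 calls were lost and 2 were gained. All but 4 of these changes arose in the Gnb5−/− mice. The 4 losses elsewhere were in cerebellum against cortex. They were Grk3 (0.28 with RLE factors and with DESeq2) and Arrb2 (-0.13 without the filter and without the mouse as a block). The cause of these changes was not tested.

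Counts of genes called moved more. With 2 genotypes per fit they were 20 (41 in all) for Gnb5−/− and 13 (8) for Gnb5−/− against Gnb5+/− in atria, and 1 (3) for Gnb5+/− in ventricles. DESeq2 called 110, 7 and 26 in atria (41, 2 and 8), 63 and 69 for Gnb5−/− against Gnb5+/+ (28) and Gnb5+/− (13) in ventricles, 49 in cerebellum (14), 104 in hippocampus (29) and 25 in cortex (10). Without single libraries the counts were 62 in cerebellum, 22 in cortex (26 without both of its libraries) and 21 for Gnb5−/− against Gnb5+/− ventricles, of which the fit without both cortex libraries and the ventricle fit were chosen after seeing the data. Hippocampus against cortex called 4662 in Gnb5−/− mice (7340). With no filter the interactions called 135 of atria with ventricles (1) and 5 among brain regions (3), and without the 3 brain libraries, also chosen after seeing the data, 19 among brain regions and 183 of heart with brain (83).

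Replicate numbers are shared by different mice of the genotypes. Deviations of same-numbered libraries correlated between -0.30 and 0.19, with at most 1 of 6 pairs above 0.1, so the numbers were not taken to pair the mice. As a replicate block they gave 0 calls for Gnb5+/− ventricles, 5 in cerebellum, 19 in hippocampus and 6 in cortex.

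Some member values changed sign, none of them called. For Gnb5+/− they were Adrb1 in atria (-0.0026, replicate block) and ventricles (-0.01, no filter), and, without replicate 4 of Gnb5+/− ventricles, Adrb1 -0.10, Adra1a 0.08, Grk5 0.02 and Arrb2 -0.10. Against Gnb5+/− ventricles they were Adra1a 0.01 (replicate block) and Arrb2 0.09 (without replicate 4). In cerebellum they were, without replicate 2, Adrb1 -0.01, Adra1a 0.04, Grk2 0.07 and Arrb1 0.03, and Adra1b -0.02 with the replicate block. In cortex Adra1b was 0.01 without replicate 3, and without replicates 3 and 5 Adra1b was 0.03, Adra2a -0.01, Grk3 0.01 and Arrb2 -0.04. Between tissues they were Grk3 in hippocampus against cortex (-0.01 with DESeq2 and with RLE factors, -0.13 in Gnb5−/− mice without 3 libraries), Grk2 in cerebellum against cortex (-0.04 with both) and, in cerebellum against hippocampus of Gnb5−/− mice, Adra1b 0.08, or 0.20 with Adra1a at 0.15 without 3 libraries. Interactions changed for Adra1a (-0.16 without the mouse as a block in heart, -0.03 without 3 brain libraries) and Adra1b (-0.02).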
